A study of Mus musculus with 11 samples.

Results

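The clustered protocadherin (*Pcdh*) genes form 3 arrays side by side on mouse chromosome 18. They were picked by symbol alone, as every *Pcdha*, *Pcdhb* and *Pcdhg* gene of the count tables, so the rule used no measured value, although the group was proposed with earlier results of these data known. This gave 58 of 53801 annotated genes. The alpha cluster held 14 of them, the beta cluster 22 and the gamma cluster 22. The gamma genes divided into 12 gamma-A, 7 gamma-B and 3 C-type genes, and the alpha cluster held the other 2 of the 5 C-type genes.

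Clustered protocadherins are adhesion proteins of the cell surface, each with cadherin repeats outside the cell, that bind the same isoform on a facing cell. In neurons, each gene is switched on by its own promoter, mostly at random, and the resulting mixture of isoforms gives a cell an identity that underlies self-avoidance of its branches. The C-type genes are used more uniformly. Alpha and gamma transcripts join 1 variable first exon to constant exons shared by the whole cluster, whereas most beta genes are a single exon. SMG6 is an endonuclease of nonsense-mediated mRNA decay (NMD), the pathway that cuts transcripts whose reading frame ends too early.

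RNA was sequenced from neural progenitor cells (NPCs) of E13.5 mouse brain, grown with EGF and bFGF, from embryos of mixed C57BL/6 and 129SV background. All 3 groups were Smg6 Flox/Flox. Ctr (n = 3) carried RosaCreER tg/+ and was untreated. Ctr + 4-OHT (n = 4) was RosaCreER +/+, so it lacked the recombinase, and received 1 µM 4-OHT (4-hydroxytamoxifen, which activates CreER) for 3 days. *Smg6*-iKO (n = 4) carried RosaCreER tg/+ and received the same 4-OHT, and RNA was taken on day 6. Each library is named here by its embryo. SMH_128, SMH_132 and SMH_133 gave both a Ctr and a *Smg6*-iKO culture, SMH_127 gave only *Smg6*-iKO, and SMH_125, SMH_126, SMH_129 and SMH_131 gave Ctr + 4-OHT. Thus, *Smg6*-iKO differed from Ctr by 4-OHT and the deletion together, and from Ctr + 4-OHT by the transgene and the deletion together. The recombinase is driven from the ubiquitous Rosa26 locus, and the share of cells with the deletion was not measured here.

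The libraries held 26418249 to 33756875 counted reads. Clustered *Pcdh* genes took 14565 to 20568 of those counts. Counts were whole-gene totals, and *Smg6* itself read 69.4 to 79.3 CPM (counts scaled to the library size) in Ctr, 66.5 to 72.2 in Ctr + 4-OHT and 62.2 to 71.8 in *Smg6*-iKO, which does not show loss of the floxed part. The 8 neural progenitor markers summed to 4318 to 5424 CPM and the 7 neuron markers to 1642 to 2674 CPM, so the cultures held transcripts of both cell types. The 4 microglial markers summed to 0.485 to 1.26 CPM, the 4 endothelial and mural markers to 11.7 to 32.3 CPM and the 4 meningeal fibroblast markers to 82.0 to 520.9 CPM. The meningeal sum was highest in *Smg6*-iKO SMH_127 and in Ctr + 4-OHT SMH_131. In bulk RNA, fewer cells of a type and less RNA per cell cannot be told apart.

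All 58 genes lie on the plus strand (GRCm38). The alpha cluster spans chr18:36930184-37187661, the beta cluster chr18:37264938-37524479 and the gamma cluster chr18:37661793-37841873. Reads that overlap several genes were not counted, so the constant exons shared by a cluster contributed nothing. What remained countable was the variable first exon and, in some alpha and gamma genes, sequence of further annotated transcripts, such as those with a retained intron. In *Pcdha11* the countable bases were scattered over chr18:37010712-37160705, and in *Pcdhgb4* over chr18:37720369-37729355, past the start of *Pcdhga8*. The countable sequence came to 494 to 4606 bases in the alpha genes and 1570 to 4614 bases in the gamma genes. Beta genes were countable over 90.3% to 100% of their exons. *Pcdha4* had the shortest countable stretch, since 2410 of its bases also belong to the overlapping model Gm42416, and it received 4 to 12 counts per library. *Pcdhb1* received 0 to 3 counts. Neither was tested, which left 56 genes in each comparison.

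Expressed as CPM per kb of countable exon (median over the 11 libraries), the clusters differed in level. *Pcdhgc3*, a C-type gene, reached 49.7 CPM per kb, above every other clustered *Pcdh* gene. It took 32.9% to 40.7% of the length-adjusted gamma signal of a library. The next gamma genes were *Pcdhgc4* with 7.15 and *Pcdhga3* with 7.13 CPM per kb, and the lowest were *Pcdhgb8* with 1.59 and *Pcdhgc5* with 1.45. Thus, the 5 C-type genes did not share a level. *Pcdhac2* led the alpha cluster with 6.76 CPM per kb, ahead of *Pcdha12* with 2.18 and *Pcdha9* with 1.96, while the C-type gene *Pcdhac1* stood at 1.22. *Pcdha1*, the gene at the 5′ end of the alpha cluster, was lowest there with 0.199 CPM per kb.

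Beta genes were read at low level, highest at the 3′ end and without a steady order along the rest of the cluster. The 7 genes at the 3′ end, *Pcdhb16* to *Pcdhb22*, lay between 1.17 and 2.41 CPM per kb, and the 15 genes before them between 0.0148 and 1.1. *Pcdhb17* (2.41), *Pcdhb19* (2.05) and *Pcdhb16* (2.05) were the highest of them, and *Pcdhb1* at the 5′ end the lowest. This division of the cluster was made after the values were seen and has no test. The number of genes in equal use that would give the observed evenness of shares (the exponential of the Shannon entropy) was 17.3 to 18.5 of 22 for beta. It was 9.29 to 10.4 of 14 for alpha and 11.4 to 13.9 of 22 for gamma, where *Pcdhgc3* weighed on it: the 19 gamma genes other than the C-type genes gave 17.7 to 18.1. The bulk values are means over many cells and carry no information on which isoforms one cell used.

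**Figure D1:**
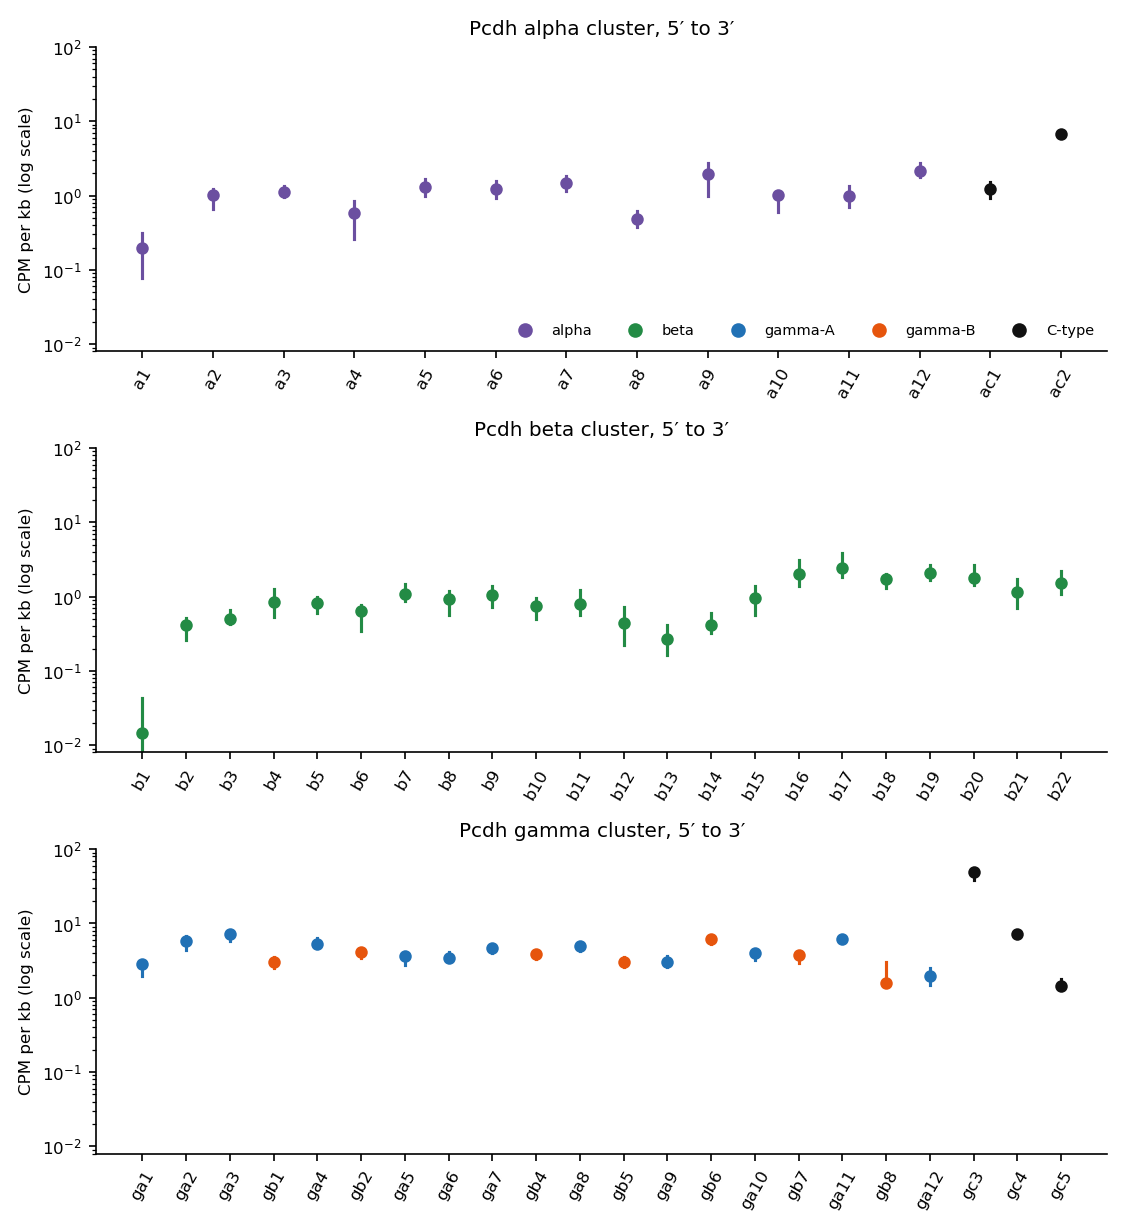
Level of each clustered *Pcdh* gene in CPM per kb of countable exon (log axis), in 5′ to 3′ order; points are medians and bars the range over 11 libraries (*Pcdhb1* was at 0 in some libraries, below the axis). *Pcdhgc3* stands at 49.7, and the 7 genes at the 3′ end of the beta cluster stand above the 15 before them.

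*Smg6*-iKO was first compared with Ctr + 4-OHT, both treated with 4-OHT. These groups differed by the transgene and the deletion together and came from different embryos. Of the 56 genes tested, 1 passed an adjusted p of 0.05 (edgeR quasi-likelihood test, adjusted over all genes), against 1.17% of all genes. That gene was *Pcdhgb8*, and it rose. It also rose against Ctr, where it was 1 of 5 called.

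*Pcdhgb8* (ENSMUSG00000103081, chr18:37761801-37841870) lies between *Pcdhga11* and *Pcdhga12*, and its countable exon, the variable first exon, spans chr18:37761801-37764299. GENCODE types the gene as a polymorphic pseudogene and RefSeq as a transcribed pseudogene. In the reference genome, its reading frame meets a stop at codon 744, whereas the annotated frame runs to codon 932. This stop lies in exon 1, 337 bases before the last exon junction, and NMD is known to recognise stops upstream of junctions. Among the 58 genes, no other had its annotated main frame interrupted. In the other alpha and gamma genes, the main frame ended in the last exon. The annotation holds transcripts of the NMD class for *Pcdhgc3* and *Pcdha6*, which gene counts do not separate from their other transcripts. Whether the stop plays a part in the values of *Pcdhgb8* was not tested, nor whether these mixed-strain embryos carry it.

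In Ctr, *Pcdhgb8* measured 3.71, 5.01 and 3.86 CPM in SMH_128, SMH_132 and SMH_133. In Ctr + 4-OHT it measured 3.79, 3.98, 3.94 and 3.71 CPM in SMH_125, SMH_126, SMH_129 and SMH_131. In *Smg6*-iKO it measured 6.76, 6.63, 7.47 and 7.33 CPM in SMH_127, SMH_128, SMH_132 and SMH_133. All 4 *Smg6*-iKO libraries thus stood above all 7 control libraries. The underlying counts were 101 to 157 in the controls and 181 to 232 in *Smg6*-iKO. Against Ctr + 4-OHT, *Pcdhgb8* was 1.84-fold higher (log2 0.88 ± 0.10 SE, adjusted p = 0.0026, edgeR). Against Ctr, it was 1.68-fold higher (log2 0.75 ± 0.13 SE, adjusted p = 0.00868, edgeR). The exact two-sided permutation test over libraries gave p = 0.0286 in each comparison, the smallest it can give. Between the controls, *Pcdhgb8* differed by −0.12 ± 0.15 SE on the log2 scale (adjusted p = 0.84, edgeR).

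Within the embryos that gave both cultures, the log2 ratio of *Smg6*-iKO to Ctr for *Pcdhgb8* was 0.84 in SMH_128, 0.57 in SMH_132 and 0.93 in SMH_133. It was therefore higher in 3 of 3. The call held in every alternative analysis, also with any single library left out.

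The other gamma-B genes did not share this. Per kb, *Pcdhgb8* amounted to 0.421 ± 0.052 of the mean of the 6 other gamma-B genes in Ctr (SD, n = 3) and to 0.406 ± 0.027 in Ctr + 4-OHT (SD, n = 4). In *Smg6*-iKO, it amounted to 0.704 ± 0.023 (SD, n = 4). The ratio ranged from 0.368 to 0.479 in the controls and from 0.670 to 0.722 in *Smg6*-iKO, with no overlap. Its neighbour upstream, *Pcdhga11*, differed by 0.03 ± 0.08 SE (log2, against Ctr + 4-OHT) and its neighbour downstream, *Pcdhga12*, by 0.23 ± 0.14 SE, neither called. Within Ctr + 4-OHT, *Pcdhgb8* lay between 3.71 and 3.98 CPM and the sum of 7 neuron markers between 1642 and 2674 CPM. The part of the neuron markers in the *Pcdhgb8* values was not tested.

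**Figure D2:**
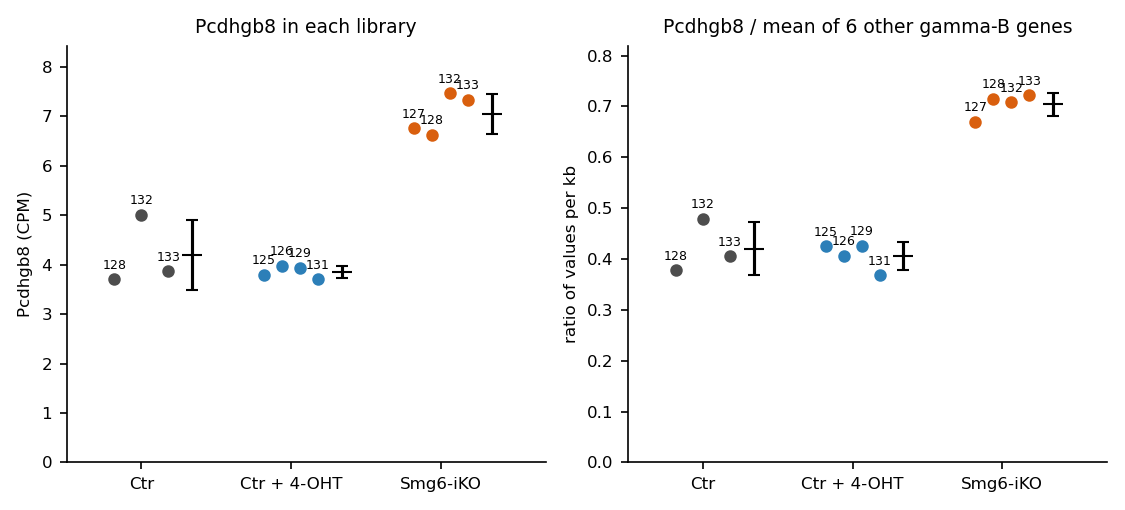
*Pcdhgb8* in each library, as CPM (left) and as the ratio of its value per kb to the mean of the 6 other gamma-B genes (right); numbers are those of the SMH embryo names, bars are mean ± SD. The 4 *Smg6*-iKO libraries lie at 6.63 to 7.47 CPM, above the 7 control libraries at 3.71 to 5.01.

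The other 55 genes tested were not called against Ctr + 4-OHT. In this comparison the largest differences besides *Pcdhgb8* were those of *Pcdhb3* (log2 0.42 ± 0.13 SE) and *Pcdhga1* (log2 0.32 ± 0.14 SE). *Pcdhb3* lay at 2.13 to 2.49 CPM in *Smg6*-iKO and at 1.60 to 1.87 CPM in Ctr + 4-OHT, without overlap, yet its adjusted p was 0.153 (edgeR). *Pcdhga1* overlapped between the groups (adjusted p = 0.263, edgeR). *Pcdhb3* and *Pcdhgb8* were thus the 2 of 56 genes with no overlap and higher values in *Smg6*-iKO, against 5.03% of all genes, and none was lower without overlap, against 6.0%. At the other end, *Pcdhb4* (log2 −0.25 ± 0.24 SE), *Pcdhb11* (−0.12 ± 0.20 SE) and *Pcdhb17* (−0.09 ± 0.20 SE) gave the most negative values, none of them called. The median log2 difference was 0.06 for the 13 alpha, 0.09 for the 21 beta and 0.13 for the 22 gamma genes tested, beside 0.01 for all genes. Above 0 lay 8 alpha, 17 beta and 20 gamma genes, the 12 gamma-A genes among them, together 45 of 56, beside 52.8% of all genes.

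The comparison of *Smg6*-iKO with Ctr, which sets cells of the same genotype without and with 4-OHT side by side, gave calls in the beta cluster. Here 5 of 56 genes passed, all higher in *Smg6*-iKO, against 4.27% of all genes called higher and 9.25% called in either direction. They were *Pcdhgb8* and 4 beta genes, *Pcdhb10*, *Pcdhb16*, *Pcdhb21* and *Pcdhb22*, of which the last 3 belong to the group of 7 at the 3′ end. Beta protocadherins carry no constant domain of their own cluster and share the adhesive ectodomain with the alpha and gamma proteins.

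*Pcdhb21* measured 3.53, 3.64 and 3.94 CPM in Ctr and 5.71, 4.98, 6.25 and 6.48 CPM in *Smg6*-iKO. It rose 1.58-fold (log2 0.66 ± 0.13 SE, adjusted p = 0.0131, edgeR), with no overlap. In Ctr + 4-OHT, however, it ranged from 3.00 to 7.25 CPM and spanned both other groups.

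*Pcdhb22* measured 7.03, 7.95 and 6.73 CPM in Ctr and 10.87, 9.42, 9.84 and 10.18 CPM in *Smg6*-iKO. It rose 1.39-fold (log2 0.48 ± 0.10 SE, adjusted p = 0.0187, edgeR). Ctr + 4-OHT overlapped both groups, from 6.96 to 13.499 CPM.

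*Pcdhb16* measured 8.73, 8.53 and 8.98 CPM in Ctr and 12.7, 10.7, 11.1 and 13.2 CPM in *Smg6*-iKO. It rose 1.37-fold (log2 0.45 ± 0.10 SE, adjusted p = 0.0222, edgeR), and Ctr + 4-OHT ran from 7.26 to 16.4 CPM. *Pcdhb10*, from the middle of the cluster, measured 1.63, 1.66 and 1.41 CPM in Ctr and 2.16, 2.27, 2.76 and 2.34 CPM in *Smg6*-iKO. It rose 1.51-fold (log2 0.60 ± 0.16 SE, adjusted p = 0.0417, edgeR). In Ctr + 4-OHT, *Pcdhb10* lay between 1.74 and 2.64 CPM, above Ctr and overlapping *Smg6*-iKO. *Pcdhb21* and *Pcdhb22* share 455 bases where their exons overlap, which were not counted.

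**Figure D3:**
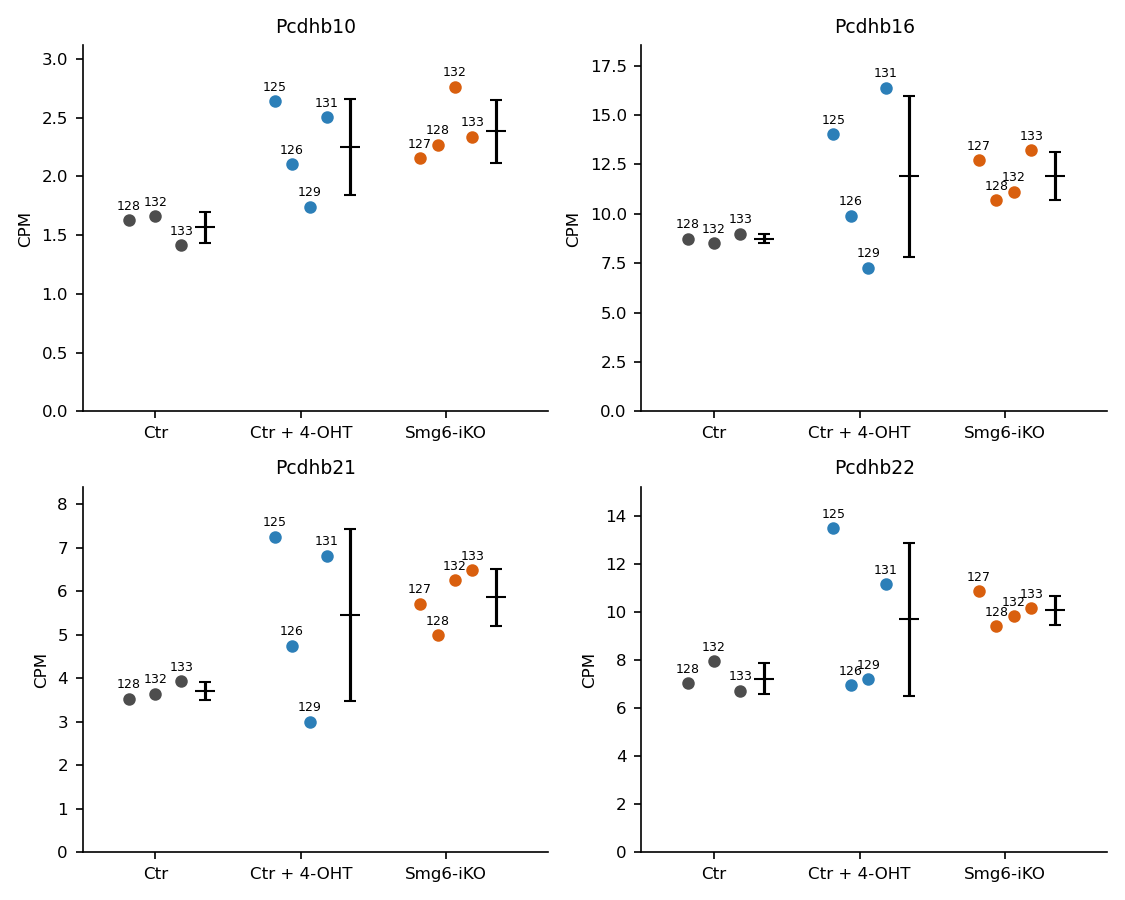
CPM of the 4 beta genes called in *Smg6*-iKO against Ctr, in each library; numbers are those of the SMH embryo names, bars are mean ± SD. In each panel *Smg6*-iKO lies above Ctr, while Ctr + 4-OHT spreads widely, for *Pcdhb16* from 7.26 to 16.4 CPM.

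The 4 beta calls were not kept in every fit, while their fold changes moved little. With 1 library left out, the log2 difference was 0.52 to 0.64 for *Pcdhb10*, 0.40 to 0.50 for *Pcdhb16*, 0.61 to 0.73 for *Pcdhb21* and 0.42 to 0.54 for *Pcdhb22*. All 4 calls were lost, leaving *Pcdhgb8*, when all 11 libraries shared 1 estimate of the spread, and also without Ctr SMH_128 or without *Smg6*-iKO SMH_133. Without Ctr SMH_132 or Ctr SMH_133, 2 genes were called, and without *Smg6*-iKO SMH_127, 3 genes. Calls over all genes fell in these fits too: 767 genes were called higher with all 7 libraries, 320 with the shared estimate, 278, 203 and 370 without Ctr SMH_128, SMH_132 or SMH_133, and 376 and 224 without *Smg6*-iKO SMH_127 or SMH_133. With embryo as a block, in which SMH_127 has no partner and does not inform the difference, 7 genes were called, the same 5 with *Pcdhb5* and *Pcdhb9*, against 10.3% of all genes called higher in that fit.

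As a cluster, the beta genes nevertheless lay to one side. All 21 beta genes tested had a log2 difference above 0 against Ctr, beside 51.0% of all genes, with a median of 0.31 beside 0.01 for all genes. No overlap and higher values in *Smg6*-iKO were seen in 8 of the 21, against 11.4% of all genes. In 15 of the 21, *Smg6*-iKO exceeded Ctr in each of the 3 shared embryos, against 25.7% of all genes, and in none was it lower in each, against 25.8%. Genes of a cluster share libraries and a locus, so these counts are not independent. For the alpha cluster, 12 of 13 genes lay above 0 (median 0.24), 2 of them without overlap, and for the gamma cluster 14 of 22 (median 0.05), 2 without overlap.

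Summed over the 22 beta genes, Ctr gave 85.7, 89.8 and 90.0 CPM and *Smg6*-iKO gave 114.7, 103.0, 110.3 and 116.4 CPM. The sums did not overlap, and the log2 ratio of the means was 0.33. Within the embryos it was 0.27 (SMH_128), 0.30 (SMH_132) and 0.37 (SMH_133), higher in 3 of 3. Ctr + 4-OHT gave 131.8 (SMH_125), 89.5 (SMH_126), 78.7 (SMH_129) and 135.9 CPM (SMH_131), so its libraries lay on both sides of *Smg6*-iKO, and the log2 ratio of *Smg6*-iKO to Ctr + 4-OHT was 0.03. The first 15 beta genes and the 7 at the 3′ end both took part, with log2 ratios against Ctr of 0.29 and 0.35.

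The spread in Ctr + 4-OHT ran through most of the beta cluster, though *Pcdhb3* stayed between 1.60 and 1.87 CPM. In all 21 beta genes the highest Ctr + 4-OHT library was either SMH_125 (9 genes) or SMH_131 (12 genes), and in 15 of them SMH_129 was lowest. In the alpha cluster SMH_125 was highest in 9 of 13 genes and SMH_129 lowest in 10, while in the gamma cluster SMH_125 was lowest in 14 of 22. The neuron marker sums of these libraries were 2674 (SMH_125), 1994 (SMH_126), 1642 (SMH_129) and 2489 CPM (SMH_131), so SMH_125 and SMH_131 were highest here too and SMH_129 was lowest. *Dcx*, a microtubule protein of young neurons, read 388.1, 251.9, 192.4 and 378.7 CPM. The progenitor markers ran the other way, with 4417, 4721, 5424 and 4536 CPM. In the same library order, the meningeal fibroblast sums were 212.8, 111.9, 99.2 and 321.1 CPM. The endothelial and mural sums were 19.8, 13.4, 11.7 and 27.2 CPM, so both were also highest in SMH_131 and SMH_125. The astrocyte and oligodendrocyte lineage sums were highest in SMH_129. In Ctr, neuron markers summed to 1788 to 1975 CPM and in *Smg6*-iKO to 2091 to 2413 CPM, without overlap. All 7 neuron markers were detected, and without the embryo block none of them was called in any comparison. *Snap25*, a synaptic vesicle fusion protein, was nearest (log2 0.28 ± 0.08 SE against Ctr, adjusted p = 0.0532, edgeR). With the block, 5 of the 7 were called higher against Ctr, namely *Tubb3* (log2 0.37), *Syt1* (0.30), *Stmn2* (0.26), *Snap25* (0.22) and *Dcx* (0.17), in the same fit that called 6 beta genes. That fit called 10.3% of all genes higher. The part of the neuron markers, or of the other cell type markers, in the beta values was not tested.

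**Figure D4:**
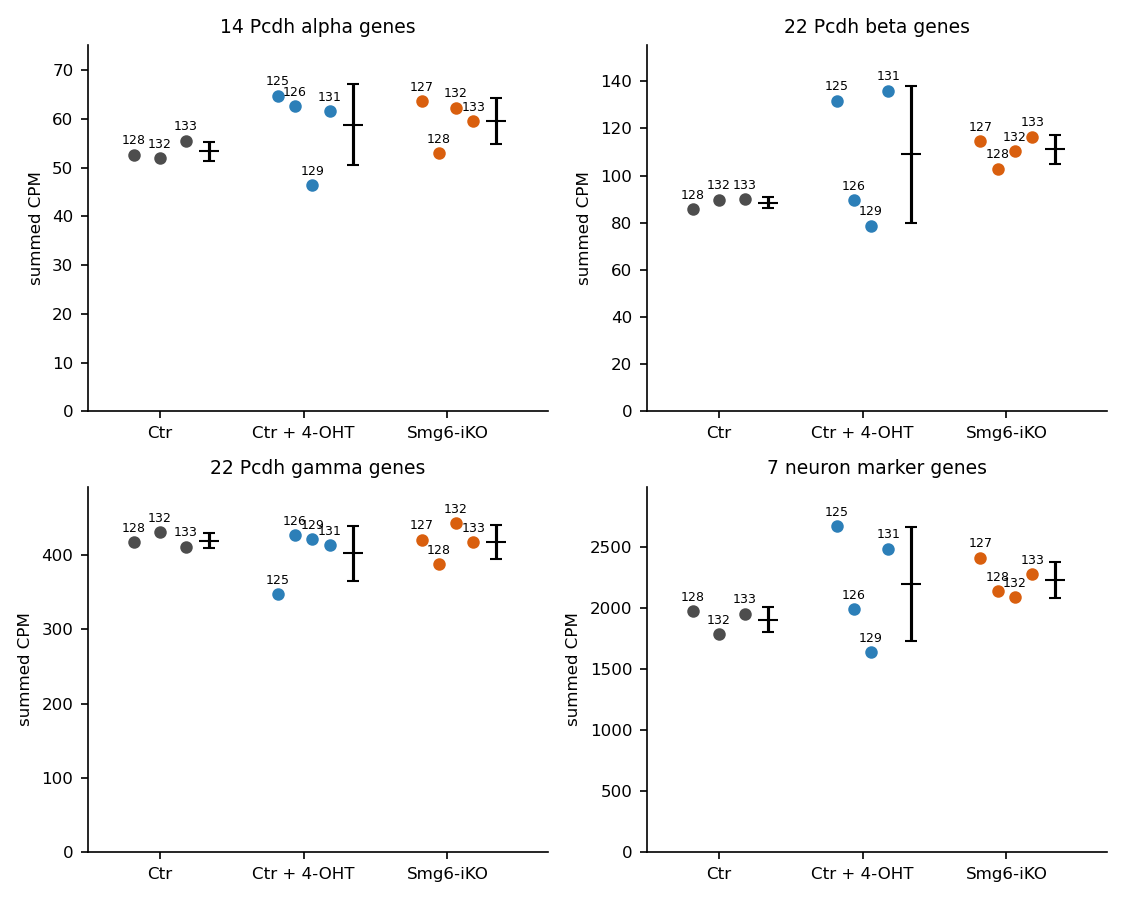
Summed CPM per library of the alpha, beta and gamma *Pcdh* genes and of the 7 neuron markers; numbers are those of the SMH embryo names, bars are mean ± SD. Beta sums of Ctr + 4-OHT run from 78.7 to 135.9 CPM, with SMH_125 and SMH_131 high for both the beta genes and the neuron markers.

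The coefficient of variation between libraries of a group, as edgeR estimates it beyond counting error, had a median of 18.3% over the beta genes, and 15 of 21 lay above the trend for genes of their abundance. Over all genes the median was 10.1%, and 24.1% lay above the trend. The alpha genes had a median of 14.3%, with 4 of 13 above the trend, and the gamma genes of 10.0%, with 2 of 22 above it.

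Alpha and gamma sums did not separate the groups. The 14 alpha genes summed to 51.9 to 55.5 CPM in Ctr, 46.4 to 64.7 CPM in Ctr + 4-OHT and 53.0 to 63.7 CPM in *Smg6*-iKO. The 22 gamma genes summed to 411.4 to 430.7, 347.4 to 427.1 and 387.6 to 442.9 CPM. No alpha gene was called in any comparison. The largest alpha difference between *Smg6*-iKO and Ctr, that of *Pcdha1* (log2 0.61 ± 0.45 SE), came from levels of 0.192 to 0.787 CPM over the 11 libraries and was not called (adjusted p = 0.425, edgeR). It was 1.29 without Ctr SMH_128 and 0.30 without Ctr SMH_132.

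None of the C-type genes was called in any comparison. *Pcdhgc3* measured 175.7, 171.2 and 167.9 CPM in Ctr and 154.4, 149.4, 170.0 and 152.2 CPM in *Smg6*-iKO. Its log2 difference of −0.13 ± 0.06 SE was the most negative among the 56 against Ctr (adjusted p = 0.171, edgeR), ahead of *Pcdhgb6* (−0.12 ± 0.08 SE) and *Pcdhgb7* (−0.03 ± 0.10 SE). In Ctr + 4-OHT, *Pcdhgc3* ranged from 129.0 (SMH_125) to 188.0 CPM (SMH_129) and enclosed the values of both other groups. *Pcdhgc4* measured 22.6, 23.3 and 24.9 CPM in Ctr and 27.6, 25.2, 26.1 and 27.3 CPM in *Smg6*-iKO, without overlap (log2 0.17 ± 0.07 SE, adjusted p = 0.115, edgeR). Against Ctr, *Pcdhac1* differed by 0.16 ± 0.14 SE, *Pcdhac2* by −0.01 ± 0.07 SE and *Pcdhgc5* by 0.13 ± 0.13 SE on the log2 scale. Against Ctr + 4-OHT, the 5 C-type genes differed by −0.06 to 0.27 on that scale.

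**Figure D5:**
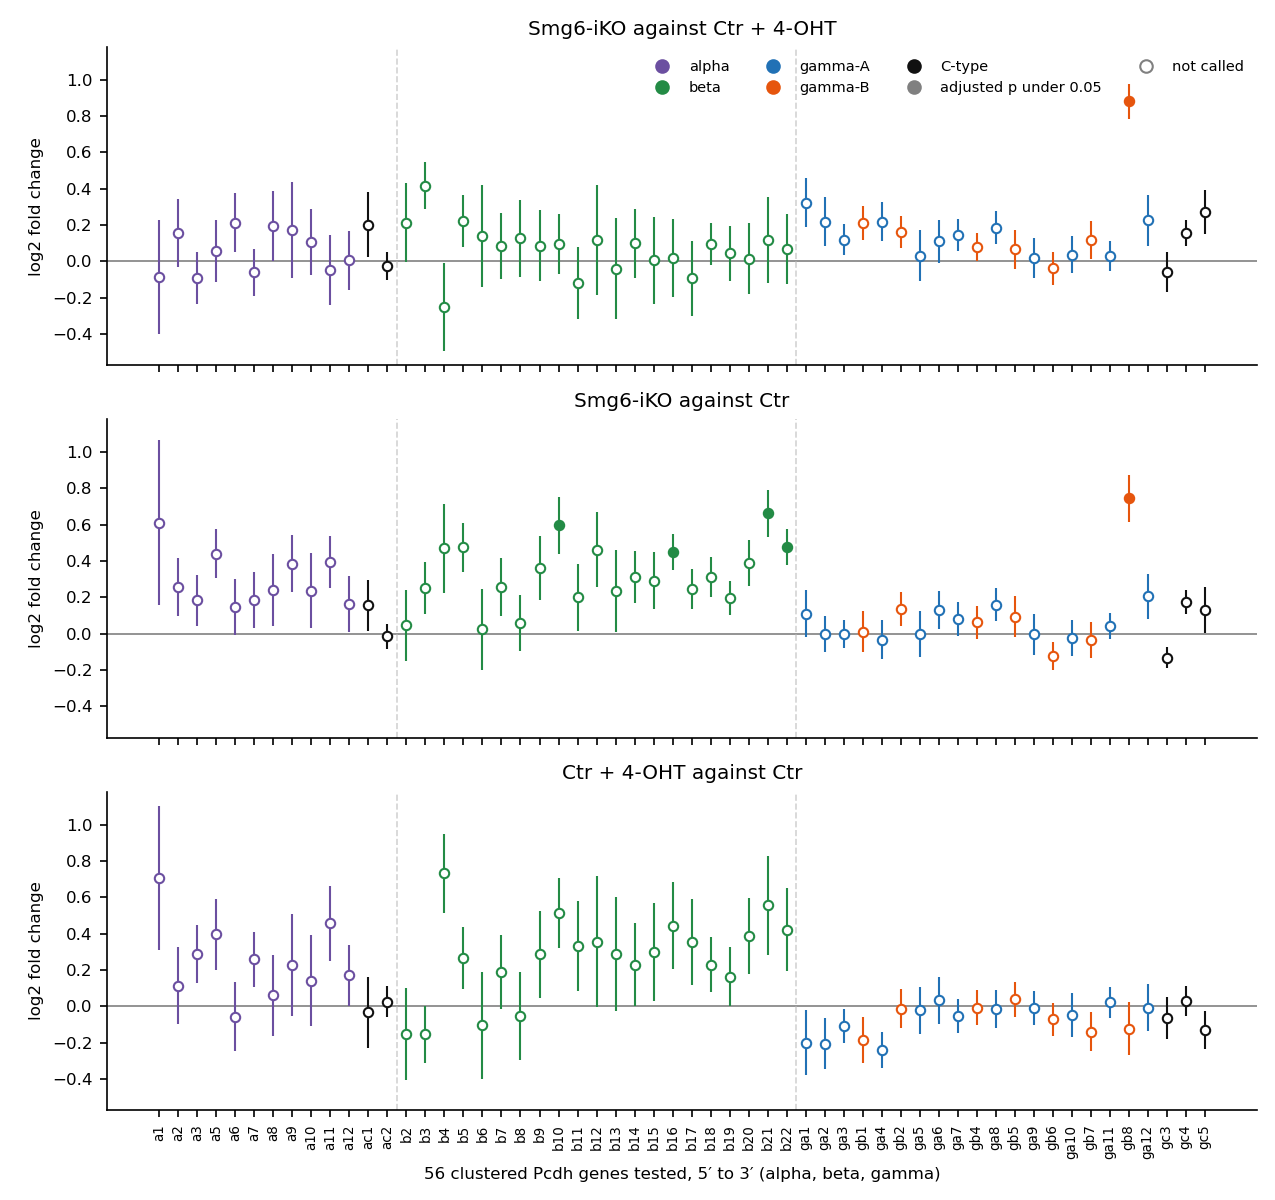
Log2 fold change ± SE of the 56 clustered *Pcdh* genes tested, in 5′ to 3′ order, for each comparison; filled points have an adjusted p under 0.05. *Pcdhgb8* is filled in both upper panels, 4 beta genes in the middle panel and none in the lower panel.

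The comparison of Ctr + 4-OHT with Ctr shows what the control groups differ by without deletion. None of the 56 genes was called by edgeR or by DESeq2, against 0.221% and 0.825% of all genes. An unadjusted p under 0.05 was reached by 3 of them, 2 higher and 1 lower, against 8.28% of all genes. The values were nonetheless not flat. In the beta cluster 17 of 21 genes lay above 0, beside 51.2% of all genes, with a median log2 difference of 0.29, and *Pcdhb4* had the largest (0.73 ± 0.22 SE, adjusted p = 0.391, edgeR), followed by *Pcdha1* (0.71 ± 0.40 SE) and *Pcdhb21* (0.56 ± 0.27 SE). That of *Pcdha1* was 1.38 without Ctr SMH_128 and 0.40 without Ctr SMH_132. In the gamma cluster 18 of 22 genes lay below 0, with a median of −0.05, and *Pcdhga4* (−0.24 ± 0.10 SE), *Pcdhga2* (−0.21 ± 0.14 SE) and *Pcdhga1* (−0.20 ± 0.18 SE) were lowest. The 3 comparisons share libraries, so their values are not independent. The beta sum of Ctr + 4-OHT exceeded that of Ctr by 0.30 on the log2 scale, with overlap. With 1 library left out, this ratio ran from 0.18 to 0.43.

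The related gene lists were examined in the same fits. None of their genes was called against Ctr + 4-OHT or between the controls, and the counts against Ctr grew when the embryo was a block, where 10.3% of all genes were called higher and 11.2% lower. Against Ctr, 1 of 11 non-clustered protocadherins tested was called, beside 9.25% of all genes called in either direction. This was *Pcdh10*, which was lower (log2 −0.28 ± 0.05 SE, adjusted p = 0.0127, edgeR), and the block added *Pcdh18* (log2 −0.30). None of 8 classical cadherins was called. *Cdh8* was nearest (0.27 ± 0.11 SE), and the block called *Cdh6* lower (−0.22).

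Of 13 chromatin regulators of the clusters, *Uhrf1*, which recruits the maintenance DNA methyltransferase, was lower (log2 −0.33 ± 0.06 SE, adjusted p = 0.00901, edgeR). No other was called without the block, where 4.98% of all genes were called lower. With the block, 4 of the 13 were called lower: *Uhrf1*, the repressor *Rest* (−0.17), the histone methyltransferase gene *Ehmt2* (−0.19) and *Dnmt1*, the maintenance methyltransferase itself (−0.14). *Ctcf*, which loops promoters to enhancers in these clusters, measured 139.9 ± 4.2 CPM in Ctr (SD, n = 3) and 129.5 ± 3.7 CPM in *Smg6*-iKO (SD, n = 4), uncalled in both fits.

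Cohesin, the ring that extrudes such loops, had 5 of 10 genes called lower against Ctr, against 4.98% of all genes called lower. They were the ring subunits *Rad21* (log2 −0.32 ± 0.05 SE), *Smc3* (−0.29 ± 0.06 SE), *Smc1a* (−0.25 ± 0.06 SE) and *Stag2* (−0.31 ± 0.07 SE) and the loader *Nipbl* (−0.24 ± 0.06 SE). With the block, the ring subunit *Stag1* was also called lower (−0.17), which made 6 of 10. The median over the 10 genes was −0.19 against Ctr and −0.17 against Ctr + 4-OHT. Among 13 signalling partners, 2 were lower, *Ctnnb1*, encoding beta-catenin (−0.19 ± 0.05 SE), and *Brk1*, a subunit of the WAVE actin regulator (−0.22 ± 0.05 SE). With the block, *Abi1* of the same regulator was also called lower (−0.15), and *Ptk2b*, a kinase bound by protocadherins, higher (0.71).

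Against Ctr, progenitor markers were called lower in 5 of 8 in both fits, against 4.98% of all genes without the block and 11.2% with it. The Notch target *Hes5* was farthest (log2 −1.28 ± 0.16 SE, adjusted p = 0.00186, edgeR). The others were the transcription factors *Sox2* (−0.47 ± 0.11 SE), *Pax6* (−0.45 ± 0.09 SE) and *Sox1* (−0.31 ± 0.06 SE) and the fatty acid binding protein gene *Fabp7* (−0.29 ± 0.07 SE). Between the controls, none called, the log2 differences were −0.59 (*Hes5*), −0.25 (*Sox2*), −0.28 (*Pax6*), −0.25 (*Sox1*) and −0.11 (*Fabp7*). Against Ctr + 4-OHT, also uncalled, they were −0.69, −0.21, −0.15, −0.05 and −0.17 in that order. The astrocyte gene *Gfap* was higher against Ctr (1.33 ± 0.32 SE). It read 10.6 to 26.2 CPM in Ctr, 25.7 to 63.6 CPM in *Smg6*-iKO and 5.13 to 78.2 CPM in Ctr + 4-OHT, so the groups overlapped. Only the block called the astrocyte gene *Slc1a3* lower (−0.36) and 3 of 5 oligodendrocyte lineage genes, *Mbp* (0.56), *Olig1* (0.22) and *Olig2* (0.17), higher, against 10.3% of all genes. The other oligodendrocyte lineage genes lay at −0.09 and −0.02 in that fit, uncalled. The block also called *Pdgfrb* of the mural markers lower (−0.41) and *Col1a1* of the meningeal markers higher (0.26). The other meningeal markers ran from −0.16 to 0.10 in that fit, none called. Without the block the oligodendrocyte, mural and meningeal lists gave no call. By unadjusted p, the nearest in them were *Olig1* between the controls (0.31 ± 0.10 SE), the endothelial receptor gene *Kdr* between the controls (−0.40 ± 0.19 SE) and *Col1a1* against Ctr (1.26 ± 0.56 SE). The part of these genes in the *Pcdh* values was not tested.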

How the data were processed

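RNA from 11 NPC cultures was sequenced in stranded, ribosomal RNA-depleted libraries as single reads. The deposited values are counts of reads per gene: the authors extracted reads with bcl2fastq 1.8.4, mapped them to GRCm38 with STAR 2.5.4b and counted unique, strand-matched reads that overlap 1 gene with featureCounts 1.5.0, using an Ensembl annotation. No identifier had to be left out of the library totals. Sequence shared between genes was therefore not measured, and reads of near-identical paralogs that do not map uniquely are missing.

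Symbols and exons came from GENCODE M21 (GRCm38). It gives the symbol *Pcdha11* to 2 genes; ENSMUSG00000007440 was named *Pcdha10* from the RefSeq gene at its start, 117 bases away. Members and lists were chosen with earlier results of these data known. Groups followed the labels, and replicates were cultures of separate embryos; no 2 libraries of a group were alike within counting error.

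Genes with enough counts (filterByExpr) were fitted for each pair of groups with the edgeR 4.0.16 quasi-likelihood test after TMM scaling (R 4.3.3), and p-values were adjusted by Benjamini-Hochberg over all genes tested, with 0.05 as the threshold. The CPM values use TMM factors over the 11 libraries, and cluster sums were described without a test. Single genes also had an exact two-sided permutation test of log2 CPM. The procedure was tested on simulated counts. Genes were named by a rule: those called, the C-type genes, the 3 highest per kb and the lowest of each cluster, and the 3 most positive and negative differences of each comparison; in the lists, those called or, where none was, the one with the smallest p. *Pcdhb5*, *Pcdhb9*, *Pcdhga11*, *Pcdhga12*, *Pcdha4*, *Pcdha6*, *Pcdha11*, *Pcdhgb4*, *Pcdhga8*, *Dcx*, *Ctcf* and list genes called only with the embryo as a block fall outside it and were named after their values were seen.

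Ctr and *Smg6*-iKO share SMH_128, SMH_132 and SMH_133 by their labels. Over all genes, deviations from the group means correlated between the cultures of an embryo (r = 0.401 to 0.539 for the 3 pairs, mean 0.462) and between cultures of different embryos averaged −0.154. Over the 56 clustered *Pcdh* genes kept, the pairing was weaker (r = 0.115 to 0.434, mean 0.244). Between cultures of different embryos, r there ran from −0.392 to 0.286 and averaged −0.081. The embryo as a block was an alternative, as were DESeq2 1.42.0 with its size factors or its Wald test, other filters on low counts (a minimum of 10 in every library, or none), 1 fit over all libraries, library totals in place of TMM for the sums, and each library left out. No sequence of these genes is printed.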

Additional observations from a re-analysis of the deposited data

Results flagged for a closer look

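In 118 groups of 4 libraries (56 genes and 3 cluster sums, in Ctr + 4-OHT and in *Smg6*-iKO), the most extreme library was compared with the others by the ratio of its gap to the range, for which chance passes about 1 in 20 groups. It passed in 3 groups. The alpha sum of Ctr + 4-OHT was 46.4 CPM in SMH_129, beside 61.6 to 64.7 CPM in the other libraries. The gamma sum of Ctr + 4-OHT was 347.4 CPM in SMH_125, beside 413.5 to 427.1 CPM. *Pcdha7* in *Smg6*-iKO measured 3.90 CPM in SMH_127, beside 3.04 to 3.16 CPM in the others.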

How the results depend on the processing

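The call of *Pcdhgb8* held in both *Smg6*-iKO comparisons under every alternative, and the number of clustered *Pcdh* genes called against Ctr + 4-OHT (1) and between the controls (0) was the same in all of them. Against Ctr, 5 genes were called, but 1 with all libraries in one fit, and between 1 and 7 when single libraries were left out, where 203 to 1135 of all genes were called higher, beside 767 with none left out; beta calls lost there, and their fold changes, are described with the results. With the embryo as a replicate block, 7 genes were called (gains: *Pcdhb5*, *Pcdhb9*), and the log2 ratios of the alpha, beta and gamma sums became 0.12, 0.31 and −0.01. The block lost no call among the clustered genes, and the lists it changed are given with the results. The log2 ratios of the cluster sums moved by less than the spread between libraries in all 96 alternatives. With single libraries left out, however, some of these ratios changed sign: against Ctr + 4-OHT the alpha sum ran from −0.079 to 0.072, the beta sum from −0.10 to 0.15 and the gamma sum from −0.012 to 0.086. The gamma sum also ran from −0.038 to 0.025 against Ctr and from −0.091 to 0.0033 between the controls. Differences of genes near 0 changed sign too. Against Ctr, that of *Pcdhac2* was 0.00034 with a minimum of 10 counts and −0.049 to 0.014 with a library left out, and that of *Pcdhgb7* was −0.081 to 0.022. Against Ctr + 4-OHT, with a library left out, *Pcdhb10* ran from −0.016 to 0.17, *Pcdhb11* from −0.25 to 0.036, *Pcdhb16* from −0.16 to 0.21, *Pcdhb17* from −0.25 to 0.11, *Pcdhb21* from −0.091 to 0.28, *Pcdhb22* from −0.060 to 0.26 and *Pcdhgc3* from −0.16 to 0.012. Between the controls, *Pcdhgb8* ran from −0.21 to 0.027. The cause of these shifts was not tested. At the low end of depth, *Pcdhb1* (0 to 3 counts per library) and *Pcdha4* (4 to 12) could not be tested.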
